A study of Rattus norvegicus with 6 samples.

Results

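The genes described here belong to interleukin-6 (IL-6) family signalling through the transcription factor STAT3, in primary astrocytes from rat brain that were kept as controls or given β-hydroxybutyrate (BHB), a ketone body made by the liver in fasting. They were taken from the expression table by symbol. The 9 genes are the ligand genes Il6 and Lif, the receptor genes Il6r, Lifr and Il6st, the kinase genes Jak1 and Jak2, the transcription factor gene Stat3 and the feedback inhibitor gene Socs3, and each is among the 22608 symbols measured. The series comprises 3 control libraries and 3 BHB libraries of poly(A) RNA, with a BHB dose of 2 mM in the column names of the table. The strain and age of the rats, the purity of the cultures and the duration of treatment were not given in the sources used here. Labels do not state that libraries within a group derive from different animals or cultures, and p-values therefore cover the spread among these libraries only, which may be technical.

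IL-6 family cytokines act on cells through receptor complexes that share the subunit encoded by Il6st. Janus kinases (JAKs) bound to these receptors phosphorylate STAT3, which then enters the nucleus and drives genes such as Socs3, whose product blocks the receptor complex in turn. In astrocytes this pathway is known for promoting Gfap expression during development and for the scar-forming response to injury.

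Levels are in FPKM, fragment counts scaled to transcript length and library size, so genes can be compared per length. Each library had 12288 to 12312 genes at 1 FPKM or more, and the pairwise Pearson correlation between libraries over the tested genes was at least 0.990. The astrocyte label was checked against 9 marker genes, all of which reached the minimum for testing. The most abundant, the fatty acid binding protein gene Fabp7, stood at 2319 ± 90.2 FPKM in controls (SD, n = 3). Of 12 microglia and macrophage markers 11 reached it too, up to 11.0 ± 2.47 FPKM in controls (SD, n = 3) for the complement gene C1qb. Markers of further cell types were uneven within each list. Of 8 fibroblast and mural markers 6 were tested, from the actin-binding gene Tagln at 3030 ± 142 FPKM in controls (SD, n = 3) down to Rgs5 at 1.26 FPKM. The fibroblast genes Col1a2 and Col1a1 were at 271 and 98.8 FPKM in controls, while Lum and Dcn averaged 0.119 and 0.0108 FPKM. Of 8 oligodendrocyte lineage markers 6 were tested, with Cnp at 47.0 FPKM and Sox10 untested at 0.260 FPKM. Of 7 neuron markers 5 were tested, with Stmn2 at 54.8 FPKM and Rbfox3 and Nefl untested at 0.392 and 0.106 FPKM. Of 4 ependymal markers 2 were tested, with Foxj1 at 33.8 FPKM, Ccdc153 at 0.0718 FPKM and Tmem212 listed at 0 in every library. Of 5 endothelial markers none was tested, the most abundant, Tek, was at 0.491 FPKM, and Cldn5 was listed at 0 in every library. In bulk RNA a change in the number of cells of a type cannot be told apart from a change in RNA per cell.

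Sequences around the annotated start of 7 of the 9 genes, called promoters here, were found by symbol in RefSeq (GRCr8). Each ran from 250 bases before to 50 after that start, which was not checked against where transcription begins. The letters TTCNNNGAA, the gamma-activated site that STAT proteins bind, occurred on neither strand of these 7 (the motif reads the same on both). They occurred in 8.87% of all 33469 promoters of that length. In some windows, those of Socs3 and Il6st among them, the last bases reach the start of the coding sequence. Such a window may not hold the promoter, so the absence of the letters there says little about it. Stretches upstream of Stat3, the member with the smallest p, and of Il6, the member with the lowest level, are shown. They run 5′ to 3′ on the strand of the gene, from base 250 to base 1 before the start for Stat3 (GRCr8 chr10:86363360-86363609, minus strand) and from base 170 to base 51 before the start for Il6 (chr4:5894626-5894745, minus strand).
Stat3: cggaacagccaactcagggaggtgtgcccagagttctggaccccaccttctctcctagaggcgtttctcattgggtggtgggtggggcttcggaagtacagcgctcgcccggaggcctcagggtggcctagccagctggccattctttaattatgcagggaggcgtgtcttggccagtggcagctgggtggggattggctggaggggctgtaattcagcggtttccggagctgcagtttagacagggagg
Il6: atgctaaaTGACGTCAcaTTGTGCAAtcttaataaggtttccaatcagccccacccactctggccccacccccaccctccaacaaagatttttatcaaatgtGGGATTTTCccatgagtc
Capitals mark matches on either strand to 3 further motifs, which do not overlap each other, and Stat3 held none of them. In Il6 these were TGACGTCA, the cyclic AMP response element, TTGTGCAA, a C/EBP element, and GGGNNTTTC, the larger part of an NF-kB consensus site, at bases 162 to 155, 152 to 145 and 68 to 60 before the start. Of all promoters 1.83%, 0.816% and 4.53% held them, and of the 7 found here Il6 alone did. The match says only that the letters are there.

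Stat3, both kinase genes, Il6st and Socs3 lay in the upper part of the tested genes, Lifr and Il6r in the lower part, and both ligands averaged under 1 FPKM in controls. There the order was Stat3 (51.2 FPKM), Jak1 (26.9), Il6st (25.7), Jak2 (20.0), Socs3 (11.8), Lifr (3.51), Il6r (1.503), Lif (0.799) and Il6 (0.149 FPKM). The control libraries of neighbours in this order did not overlap, except those of Jak1 and Il6st, and over all 6 libraries Il6r and Lif overlapped too. Stat3 lay above 88.8% of tested genes in mean control level, Socs3 above 53.5%, Lifr above 20.2% and Il6r above 5.83%.

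With BHB, no member passed the test across all genes. Of the 12373 genes tested 7 passed (0.0566%), at an adjusted p under 0.05 in limma. Of the 9 members 7 had at least 1 FPKM in at least 3 libraries and were tested. Stat3 alone had an unadjusted p under 0.05, and it was also the only tested member whose groups did not overlap. Over all tested genes 5.59% had such a p, 3.45% higher and 2.14% lower with BHB, and the groups did not overlap in 10.9%, and a single member is too few to read against them. Log2 fold changes, BHB minus control on the log2(FPKM + 1) scale, ran from -0.06 (Lifr) to 0.19 (Stat3), with a median of 0.06, against 0.00289 over all tested genes.

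**Figure D1:**
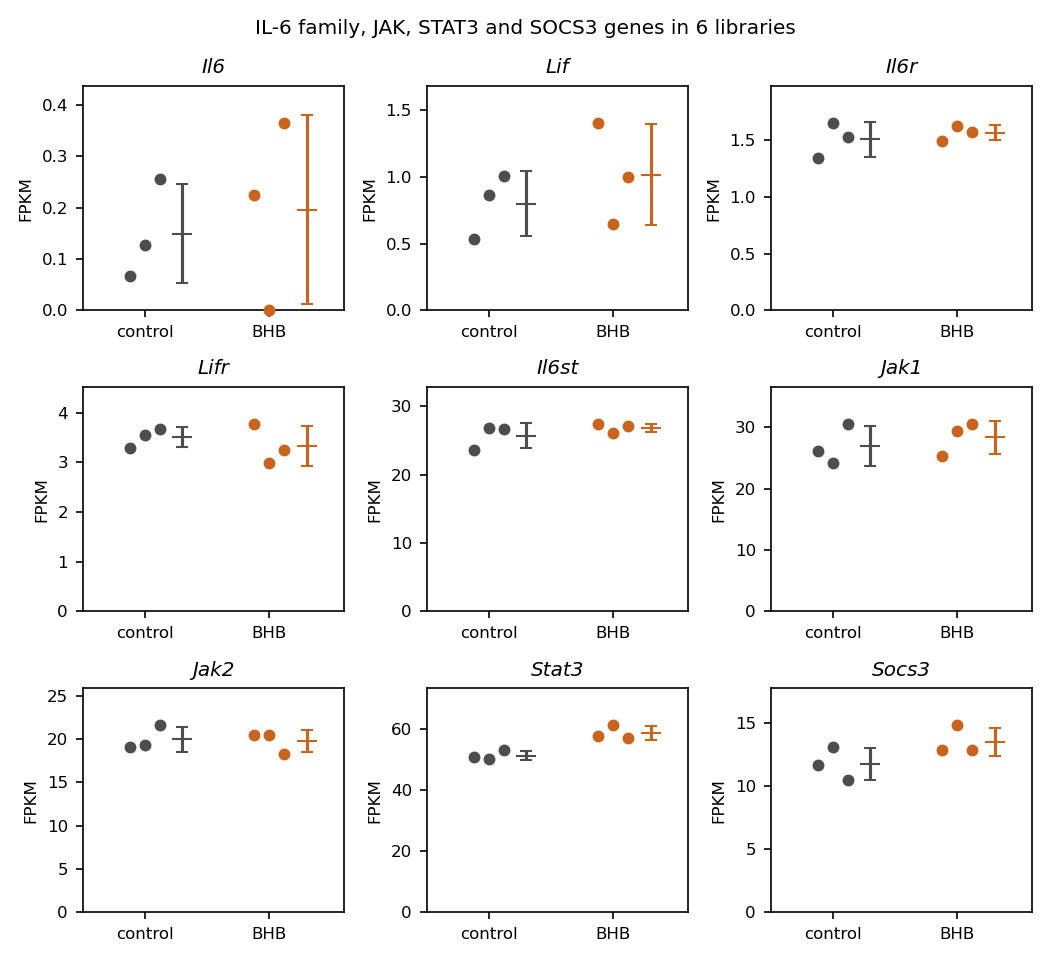
FPKM of the 9 genes in each library (points, with mean and SD beside them; each vertical axis starts at 0 and has its own scale). The 3 BHB values of Stat3 (57.0 to 61.1 FPKM) lie above its 3 control values (49.99 to 52.9 FPKM), and the groups overlap in the other genes.

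Among the ligands, Il6, the founding cytokine of the family, was at 0.0663, 0.126 and 0.255 FPKM in controls 1 to 3. With BHB it was at 0.224, 0 and 0.363 FPKM in libraries 1 to 3. The control values all lay within the range of the BHB values, and BHB 2 was listed at 0. The means were 0.149 ± 0.0962 and 0.196 ± 0.183 FPKM (SD, n = 3 each), with an exact two-sided permutation p of 0.8.

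Lif, leukaemia inhibitory factor, which signals through Lifr and Il6st, was at 0.534, 0.859 and 1.00 FPKM in controls and at 1.40, 0.646 and 0.997 FPKM under BHB. BHB 1 was the highest and control 1 the lowest of the 6, and the groups overlapped. The means were 0.799 ± 0.241 and 1.01 ± 0.376 FPKM (SD, n = 3 each; exact two-sided permutation p = 0.5). Neither ligand reached the FPKM minimum, so neither has an adjusted p here. The depth of the libraries is unknown, so no detection limit can be set for them.

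Of 10 ligand genes of the family in all, 4 were tested, none passed, and all 4 had a log2 fold change above 0 (median 0.08). Over all tested genes 51.5% lay above 0, and 4 genes are too few to read against that share. The ligands under the minimum for testing went both ways. Cntf, ciliary neurotrophic factor, was the most abundant, at 25.2 ± 1.69 FPKM in controls and 25.3 ± 0.343 FPKM under BHB (SD, n = 3 each). On the log2 scale the difference of 0.01 had a 95% interval of -0.12 to 0.14. Ctf1, cardiotrophin 1, was at 6.99 and 7.50 FPKM and Clcf1, a cardiotrophin-like cytokine, at 2.15 and 2.51 FPKM in control and BHB libraries. Cntf stood above Lif and Il6 in each of the 6 libraries.

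Among the receptors, Il6st, the shared signalling subunit, was at 23.6, 26.9 and 26.7 FPKM in controls and at 27.4, 26.2 and 27.1 FPKM under BHB. Control 1 was the lowest library and the rest lay within a narrow band. This gave a log2 fold change of 0.06, with a 95% interval from -0.08 to 0.20 (limma adjusted p = 0.917).

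Lifr, the receptor subunit for LIF and CNTF, was at 3.30, 3.56 and 3.67 FPKM in controls and at 3.76, 2.98 and 3.25 FPKM under BHB. BHB 1 held the highest and BHB 2 the lowest of the 6 values. On the log2 scale the difference was -0.06 (95% interval -0.26 to 0.14, limma adjusted p = 0.937).

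Il6r, the subunit that binds IL-6, was at 1.34, 1.64 and 1.52 FPKM in controls and at 1.49, 1.62 and 1.57 FPKM under BHB. The BHB values lay inside the control range. Their log2 fold change was 0.03 (95% interval -0.16 to 0.23, limma adjusted p = 0.967). Il6st exceeded Il6r by 16.3 to 17.5 times in the control libraries and by 16.1 to 18.3 times in the BHB libraries. It exceeded Lifr by 7.15 to 7.55 times in controls and by 7.27 to 8.77 times with BHB.

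Of 7 receptor genes 6 were tested and none passed. The log2 fold change was above 0 in 5 (median 0.07), beside 51.5% of all tested genes. Osmr, the oncostatin M receptor, had the smallest p of this list. It was at 13.1, 12.1 and 13.4 FPKM in controls and at 14.1, 14.5 and 13.8 FPKM under BHB, so the groups did not overlap. Its log2 fold change of 0.13 had a 95% interval that just included 0 (-0.00157 to 0.26, limma adjusted p = 0.881). Cntfr, the CNTF receptor, stood at 17.3 ± 1.02 and 18.6 ± 1.29 FPKM and Il11ra1, an IL-11 receptor subunit and the most abundant of the list, at 28.03 ± 2.30 and 29.4 ± 1.56 FPKM in control and BHB libraries (SD, n = 3 each).

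The 4 JAK genes were all tested, none passed, and 2 had a log2 fold change above 0 (51.5% over all tested genes). Jak1, the main kinase of these receptors, was at 26.1, 24.1 and 30.5 FPKM in controls and at 25.3, 29.3 and 30.5 FPKM under BHB. Both groups held low and high libraries, and control 3 and BHB 3 had nearly the same value. The log2 fold change was 0.08 (95% interval -0.14 to 0.30, limma adjusted p = 0.928).

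Jak2, which also serves growth hormone and erythropoietin receptors, was at 19.0, 19.3 and 21.6 FPKM in controls and at 20.4, 20.5 and 18.3 FPKM under BHB. Control 3 was the highest library and BHB 3 the lowest. Its log2 fold change was -0.01 (95% interval -0.17 to 0.14, limma adjusted p = 0.985). Jak1 made up 45.1% to 49.0% of the summed FPKM of the 4 JAK genes in controls and 45.7% to 52.0% with BHB. Tyk2 (6.68 and 6.77 FPKM) and Jak3 (3.31 and 3.20 FPKM in control and BHB libraries) had log2 fold changes of 0.01 and -0.03, and of the 4 genes of this list none had an unadjusted p under 0.05.

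**Figure D2:**
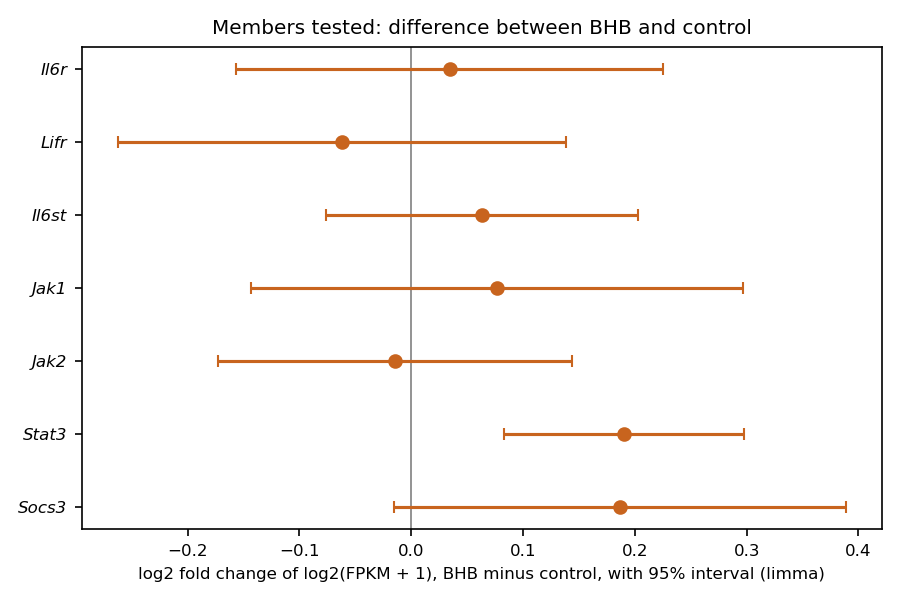
Log2 fold change of the 7 tested genes (points; BHB minus control on the log2(FPKM + 1) scale) with 95% intervals from limma. The interval of Stat3 (0.08 to 0.30) lies above 0 and the others include 0, and no gene passed after adjustment over all tested genes.

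Stat3, the transcription factor on which the pathway converges, was at 50.8, 49.99 and 52.9 FPKM in controls and at 57.7, 61.1 and 57.0 FPKM under BHB. All 3 BHB libraries lay above all 3 controls. The means were 51.2 ± 1.53 and 58.6 ± 2.17 FPKM (SD, n = 3 each), a ratio of 1.14. The log2 fold change was 0.19 (SE 0.0468, 95% interval 0.08 to 0.30). Its unadjusted p in limma was 0.00339, rank 43 of 12373, and the adjusted p was 0.881. The exact two-sided permutation p was 0.1, the smallest that 3 against 3 allows. The difference between groups was larger than the spread within them but was not called across all genes.

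Socs3, the feedback inhibitor that STAT3 induces, was at 11.7, 13.1 and 10.5 FPKM in controls and at 12.9, 14.8 and 12.9 FPKM under BHB. Control 2 lay above BHB 1 and BHB 3, so the groups overlapped. The means were 11.8 ± 1.27 and 13.5 ± 1.13 FPKM (SD, n = 3 each), a ratio of 1.15, close to that of Stat3. The log2 fold change was 0.19 (SE 0.0880, 95% interval -0.02 to 0.39), with an adjusted p of 0.881 in limma and an exact two-sided permutation p of 0.3. Without control 3 the log2 fold change was 0.12 and without BHB 2 it was 0.12, the lowest of the values with a library left out, and without control 2 it was 0.26. Stat3 exceeded Socs3 by 3.82 to 5.03 times in control libraries and by 4.12 to 4.49 times in BHB libraries.

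**Figure D3:**
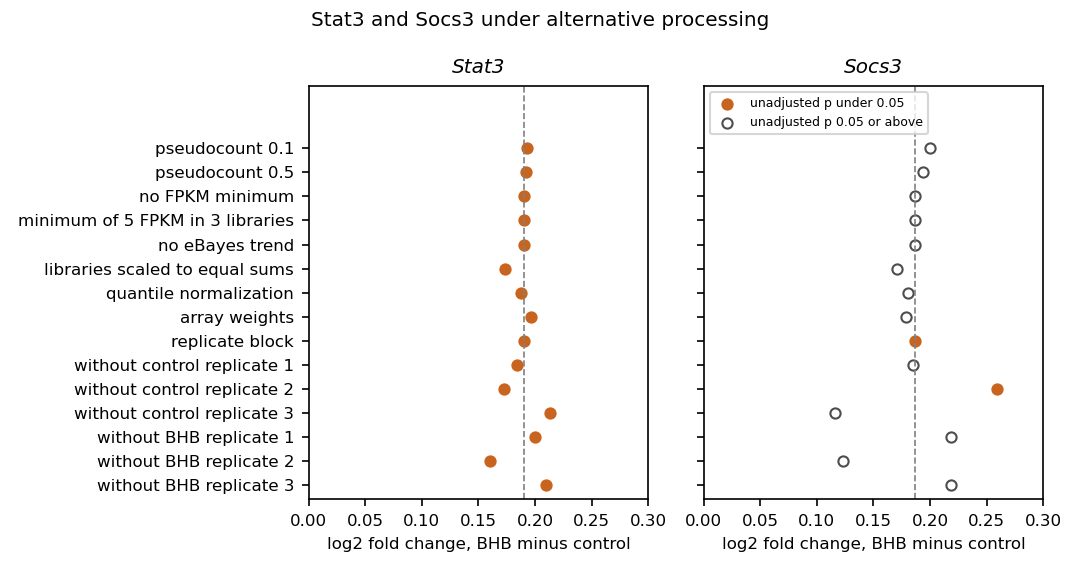
Log2 fold change of Stat3 and Socs3 (BHB minus control) under 15 alternative settings (rows); filled points have an unadjusted p under 0.05 in limma and the dashed line is the value reported. Stat3 stays between 0.16 and 0.21 and is filled throughout, Socs3 runs from 0.12 to 0.26 and is filled in 2 settings.

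The genes whose pattern over the 6 libraries was most like that of Stat3, by the root mean square difference of log2(FPKM + 1) centred on each gene's mean, were Frmpd1 (0.0169), Flad1 (0.0201) and Acads (0.0215). For Socs3 they were Dzip1l (0.0331), LOC301124 (0.0373) and A3galt2 (0.0380). None of the 6 is on the pathway lists.

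Of 7 STAT genes 6 were tested and none passed. The log2 fold change was above 0 in 5 (median 0.08), beside 51.5% of all tested genes. Stat3 made up 41.0% to 42.0% of the summed FPKM of the STAT genes in controls. With BHB it made up 41.9% to 45.6%, so these shares overlapped. The summed FPKM was 121.9 to 125.9 in controls and 129.2 to 136.0 with BHB. Stat3 is the largest part of this sum, so the sum is no separate result, and a sum without Stat3 was not taken. Stat5a, which acts downstream of growth hormone and many cytokines, was at 4.37, 4.43 and 4.56 FPKM in controls and at 5.20, 5.36 and 4.94 FPKM under BHB. Its groups did not overlap, and the log2 fold change was 0.18 (95% interval 0.03 to 0.33, limma adjusted p = 0.881). Stat5b, its close paralog, stood at 8.77 ± 1.25 and 9.47 ± 1.09 FPKM in control and BHB libraries (SD, n = 3 each), and how reads shared by the pair were counted was not given in the sources used here. Stat6, the IL-4 and IL-13 factor, stood at 10.3 and 10.8 FPKM, and Stat4 was listed at 0 in every library.

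Among 16 genes of inhibitors, from the SOCS and PIAS families and tyrosine phosphatases, 15 were tested and none passed. The log2 fold change was above 0 in 9 and below 0 in 6 (median 0.02), with an unadjusted p under 0.05 for 2 higher and 1 lower gene. Over all tested genes 51.5% were above 0, and 3.45% were higher and 2.14% lower at such a p. The groups did not overlap in 2 genes with BHB above and 2 with BHB below, or 26.7% of the 15, beside 10.9% of all tested genes. Cish, a SOCS family member induced by STAT5, was at 0.960, 0.680 and 0.871 FPKM in controls and at 1.37, 1.10 and 1.42 FPKM under BHB. The groups did not overlap, and the ratio of means was 1.55. All its control values were under 1 FPKM and all its BHB values above, so the BHB libraries alone brought it into the test. Its part in the counts above is therefore not independent of the filter. On the log2(FPKM + 1) scale, which understates differences at such levels, it differed by 0.32 (95% interval 0.09 to 0.55, limma adjusted p = 0.881). Ptpn1, a phosphatase of JAK and insulin receptor kinases, was at 21.6, 23.3 and 21.5 FPKM in controls and at 24.6, 26.3 and 25.8 FPKM under BHB, also without overlap. Its log2 fold change was 0.20 (95% interval 0.08 to 0.32, limma adjusted p = 0.881).

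Ptpn6, a phosphatase best known from blood cells, was the lower gene, at 3.76, 3.40 and 3.06 FPKM in controls and 2.78, 2.53 and 2.78 FPKM under BHB. The groups did not overlap, and the log2 fold change was -0.25 (95% interval -0.44 to -0.06, limma adjusted p = 0.881). Of the 11 tested microglia and macrophage markers 4 had a log2 fold change above 0 and 7 below, and their summed FPKM, over all 12, was 58.0 to 66.9 in controls and 60.2 to 63.2 with BHB. None of the 12 was at 0 in all libraries. The groups did not overlap in 3 of the 11 tested (27.3%), which went both ways, beside 10.9% of all tested genes. Cx3cr1, the fractalkine receptor of microglia, stood at 5.84 ± 0.365 and 4.66 ± 0.447 FPKM, Tmem119 at 2.53 ± 0.410 and 3.11 ± 0.170 FPKM and Aif1 at 4.87 ± 0.104 and 5.22 ± 0.369 FPKM in control and BHB libraries (SD, n = 3 each). The part of these cells in the values of Ptpn6 was not tested. Ptpn11, the most abundant of the inhibitor list, stood at 47.7 and 48.4 FPKM, a log2 fold change of 0.02.

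Of 25 target genes that STAT3 is known to drive in various tissues, 24 were tested and none passed. The log2 fold change was above 0 in 19 (median 0.09), compared with 51.5% of all tested genes. An unadjusted p under 0.05 was seen in 4, all higher with BHB, and the groups did not overlap in 7, all with BHB above. Over all tested genes these shares were 3.45% and 6.43%. These genes also answer to other factors, and several are early response genes, so the list does not measure STAT3 activity. Cebpd, a C/EBP transcription factor induced in the acute phase response, was at 55.5, 62.5 and 55.9 FPKM in controls and at 67.2, 74.5 and 69.3 FPKM under BHB. Its log2 fold change was 0.28 (95% interval 0.13 to 0.42, limma adjusted p = 0.819). Junb, an AP-1 subunit, had a log2 fold change of 0.32 and Cebpb, the relative of Cebpd, 0.23 (limma adjusted p = 0.881 for each). Gfap, the astrocyte filament gene and a classical STAT3 target, stood at 1438 ± 59.5 FPKM in controls and 1517 ± 41.7 FPKM under BHB (SD, n = 3 each), with overlapping groups and a log2 difference of 0.08 (95% interval -0.03 to 0.18, limma adjusted p = 0.890). Vim, the most abundant of the list, stood at 3570 and 3545 FPKM, a log2 fold change of -0.01.

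**Figure D4:**
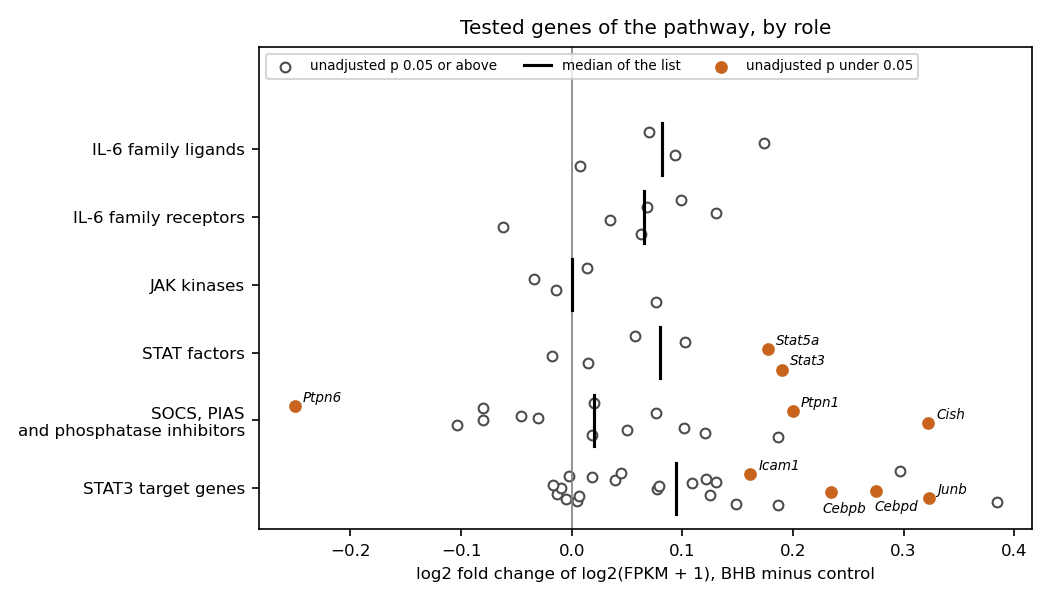
Log2 fold change (BHB minus control on the log2(FPKM + 1) scale) of the tested genes of each list (points), with the median of the list as a bar; filled, named points have an unadjusted p under 0.05 in limma. Filled points occur among STAT factors, inhibitors and target genes, and none among ligands, receptors and JAK kinases; Socs3 and Osmr are each on a pair of lists.

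Over all lists 67 genes were named, 57 were tested and none passed after adjustment over all genes. An unadjusted p under 0.05 was seen in 8 higher and 1 lower gene, or 15.8% of the 57, beside 5.59% of all tested genes. The 9 were Stat3, Stat5a, Cish, Ptpn1, Ptpn6, Cebpd, Junb, Cebpb and Icam1, and Cish met the minimum through its BHB libraries alone. The lists were drawn up with earlier results of these data known, so these shares are a description.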

How the data were processed

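The authors deposited 1 table of FPKM values with a column per library, 3 control and 3 BHB, grouped by their titles. Per the submitters' processing notes, bcl2fastq 2.0, HISAT2 and StringTie were among the programs used and rn6 was the genome build, with no roles or parameters given. The gene annotation, strandedness and the merging of transcripts into gene values were not given in the sources used here. Since FPKM holds no counts and library depth is unknown, count tests were not used.

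Values were taken as log2(FPKM + 1). Genes reaching 1 FPKM in 3 or more libraries were tested with limma 3.58.1 in R 4.3.3 (lmFit, eBayes with trend, two-sided), with Benjamini-Hochberg adjustment over all 12373. The limma model of the main fit was tested on simulated log2 values, which did not cover the minimum, the pseudocount or the alternative settings. Single genes also had an exact permutation test of the group means. The 9 members and the lists were chosen with earlier results of these data known. Named were all members and, per list, up to 3 non-members with the smallest p, the most abundant gene, and any gene passing; a gene this rule selects is not reported here. The rest of each list is given as counts, and Icam1, Gfap, Stat4 and cell type markers other than the most abundant of each list were named after their values were seen. Promoters come from RefSeq (GRCr8), a later build than that of the table. Alternatives covered pseudocount, minimum, trend, scaling, weights, replicate block, threshold and leaving out each library.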

Additional observations from a re-analysis of the deposited data

How the results depend on the processing

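No member passed in any of the 15 alternative fits, at limma adjusted p of 0.685 to 1.00, and 1 of the 7 tested members did at an unadjusted p under 0.05. No gene of the pathway lists passed in them either. Stat3 had an unadjusted p of 0.00254 to 0.0166 over these fits, and Socs3 had one under 0.05 in 2 of 15, with the replicate block and without control 2. Of all tested genes 7 passed, 4 without the eBayes trend, 3 at an adjusted p under 0.01 and 2 with the replicate block, which leaves fewer residual degrees of freedom; the cause of the lower number without the trend was not tested. Equal replicate numbers were not treated as pairs in the main fit, since no label says that they mark a shared culture, animal or day. Deviations from the group means correlated at -0.0899, 0.164 and -0.151 for numbers 1 to 3, and only control 2 correlated best with its own number. Control 1 correlated best with BHB 3 (0.186) and control 3 with BHB 1 (0.203), and pairing in another order was not tested. With a library left out 5 to 10 genes passed, and the log2 fold change of Il6r lay between -0.0123, when control 1 was left out, and 0.0748. For Jak2 it lay between -0.0459 and 0.0402, the latter without control 3, and it was 0.0371 without BHB 3. Those of Jak1 (0.00425 to 0.167), Il6st (0.00367 to 0.0950) and Lifr (-0.133 to -0.00346) kept their sign and were closest to 0 without control 2, control 1 and BHB 2. Without the minimum Lif and Il6 were tested, at adjusted p of 0.923 and 0.964 in limma. With a minimum of 5 FPKM Lifr and Il6r were not tested. Depth is unknown, and with 3 libraries a group small differences can be missed.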
